A study of Mus musculus with 6 samples.

Results

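Amino acids enter T cells through solute carriers, and 8 of the genes that encode them are described here in invariant natural killer T (iNKT) cells sorted from mouse spleen. The genes were Slc7a11, Slc3a2, Slc7a5, Slc7a6, Slc1a5, Slc38a1, Slc38a2 and Slc7a1. They were taken by name from a deposited table of 48709 genes, and all 8 were found. The labels describe 6 samples of cells in a resting state, 3 labelled Gpx4 cKO, in which Gpx4 was conditionally deleted, and 3 labelled wild type (WT). The sources used here name no Cre driver, strain or age of the mice. The table names its libraries by numbers from 18 to 23, and 0 of the 6 names occur in a label. Genotype thus stays unknown for each library, Gpx4 cKO was not compared with WT, and values are given by library number. Whether the 6 samples stem from separate animals is not stated either.

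SLC7A11 is the light chain of the cystine and glutamate exchanger, which brings in cystine for the synthesis of glutathione, the cofactor with which the peroxidase GPX4 reduces lipid hydroperoxides. It works bound to a heavy chain, the glycoprotein SLC3A2 (CD98), which also carries the large neutral amino acid transporter SLC7A5 and the cationic and neutral amino acid exchanger SLC7A6 to the cell surface. SLC1A5, SLC38A1 and SLC38A2 move glutamine and other small neutral amino acids, and SLC7A1 imports arginine and lysine. T cells are known to raise several of these carriers when they are activated.

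Total exon reads were fewest in library 21 (903524) and most in library 19 (10122187), a span of 11.2-fold. The level of Gpx4, the targeted gene, ranged from 3.20 to 31.3 CPM (exon reads per 1000000, on library sizes scaled by TMM factors). All 6 listed iNKT markers were abundant, with Cd3e between 764 and 924 CPM and Zbtb16 between 245 and 357 CPM. Of markers of other cells, the plasma cell list had sums of 179 to 1245 CPM, lowest in library 18 and highest in library 23, mostly from Jchain. The erythroid list summed to 4.34 and 4.80 CPM in libraries 18 and 19 and to between 62.8 and 289 CPM in the other 4, and the 5 B cell markers summed to at most 49.1 CPM. The dendritic cell list summed to at most 18.1 CPM and the platelet list to at most 15.8 CPM. Libraries 20 and 23 stood apart in a set of 8 predicted genes picked after their values were seen. Their sums there were 4818 and 1997 CPM, and at most 720 CPM in the other 4. In bulk RNA of sorted cells, fewer cells of a type and less RNA per cell cannot be told apart. All 95% intervals cover counting error only.

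Most reads of the 8 genes fell on the carriers of glutamine and other small neutral amino acids, and very few on the cystine carrier. Slc38a2, Slc38a1 and Slc1a5 together took 76.5% to 81.4% of the summed CPM, which is not corrected for length, and Slc7a11 held 26 of the exon reads of all 6 libraries combined. The sum over the 8 genes spanned 945 (library 19) to 1054 CPM (library 23), a ratio of 1.11. Of the 6 genes with at least 200 reads, 5 varied over the libraries beyond counting error (chi-square test of exon counts against library size, Benjamini-Hochberg adjusted over all tested genes). Of all 9042 genes tested, 71.6% did so. The ratio of the highest to the lowest library had a median of 1.36 over the 6 tested carriers and 1.57 over all tested genes, and all 6 carriers stayed within a 2-fold range, as did 72.9% of all tested genes. A difference between libraries here says nothing about genotype.

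**Figure D1:**
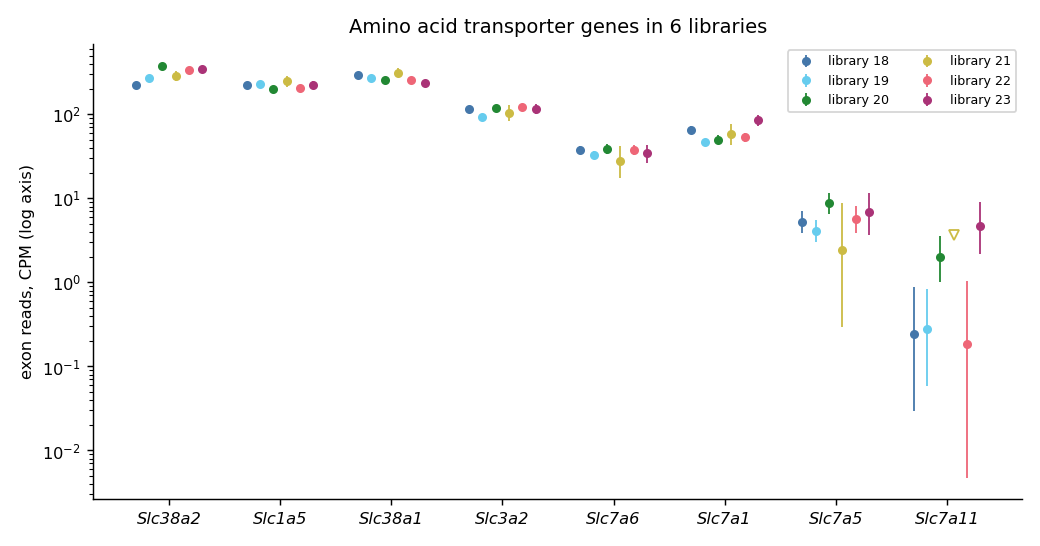
Exon reads of the 8 genes in CPM on a log axis, with 1 point per library and exact Poisson 95% intervals; the open triangle is the limit of 3.62 CPM that a count of 0 allows in library 21. Slc38a2, Slc1a5 and Slc38a1 lie above 200 CPM in every library, whereas Slc7a11 does not exceed 4.74 CPM.

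Slc7a11 lies on the minus strand of chromosome 3 of GRCm38, from 49892526 to 50443614 (ENSMUSG00000027737). It is by far the longest of the 8 genes in the deposited annotation, with a span of 551089 bases and 11866 bases of exon. Its RefSeq upstream sequence (GRCm38.p6) is shown because amino acid response elements, through which the factor ATF4 induces the cystine carrier gene, are known from this promoter. That of Slc38a2, the gene with the highest median level per length of the 8, is shown beside it. Capitals mark matches to the core of the amino acid response element (TGATGNAAN) or of the antioxidant response element (TGACNNNGC), searched on both strands without regard to overlap. The sequences run from 250 bases before the RefSeq start of each gene to the last base before it, at chr3:50443614-50443863 and chr15:96699729-96699978, both on the minus strand.
Slc7a11: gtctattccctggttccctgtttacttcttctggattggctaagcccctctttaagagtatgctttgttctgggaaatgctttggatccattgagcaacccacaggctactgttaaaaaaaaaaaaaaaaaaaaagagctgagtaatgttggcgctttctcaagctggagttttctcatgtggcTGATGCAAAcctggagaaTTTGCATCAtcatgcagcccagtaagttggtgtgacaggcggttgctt
Slc38a2: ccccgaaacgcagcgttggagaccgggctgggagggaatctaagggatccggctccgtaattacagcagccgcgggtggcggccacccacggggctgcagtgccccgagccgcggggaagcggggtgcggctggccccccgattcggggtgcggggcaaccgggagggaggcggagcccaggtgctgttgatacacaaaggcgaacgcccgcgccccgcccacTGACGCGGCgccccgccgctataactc
The Slc7a11 sequence held 2 matches to the amino acid response core, on opposite strands, at bases -66 to -58 and -48 to -40 from the start. Of 32851 windows of 300 bases around the starts of all genes, 3.95% held at least 1 such match and 0.0700% held 2 or more. Windows were found for 5 of the 8 genes, Slc7a11, Slc7a1, Slc7a6, Slc38a2 and Slc3a2. None of the other 4 held this core in the windows. Slc38a2, Slc7a1 and Slc7a6 held a match to the antioxidant response core, as did 12.4% of all windows. Sequence outside the windows was not searched. A match is a description of letters and not a site.

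Exon reads of Slc7a11 were few. Its exon reads numbered 2, 3, 11, 0, 1 and 9 in libraries 18 to 23. Libraries 20 and 23 reached 2.0 CPM (95% exact Poisson interval 0.998 to 3.58) and 4.74 CPM (2.17 to 9.01), and libraries 18, 19 and 22 had 0.241, 0.282 and 0.185 CPM. A count of 0, as in library 21, was taken to allow 3 reads, which is 3.62 CPM there; the exact Poisson interval used for the other values reaches 4.45 CPM. Libraries 20 and 23 were thus the only ones with more than 3 reads, and library 23 exceeded library 22 by 25.7-fold with a counting interval of 3.56 to 1127. Without library 23 the ratio was 10.8. Without libraries 20 and 23 the highest level was 1.53 times the lowest above 0. Its reads were too few for the test at 200 reads.

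Most Slc7a11 reads lay on introns. The intron share of its reads was 97.8%, 93.3%, 94.7%, 97.8% and 86.4% in libraries 18, 19, 20, 22 and 23, and 100% in library 21. Intron reads numbered 87, 42, 195, 45 and 57 in libraries 18, 19, 20, 22 and 23. These numbers were computed from the deposited share, which gives none in library 21. The table's own columns of intron reads and of exon-exon reads were not used here. Scaled to each library's own total of intron reads, the density over the 539 kilobases of intron was 21.1 reads per megabase of intron and 1000000 intron reads in library 18, and 8.47, 65.1, 18.5 and 64.4 in libraries 19, 20, 22 and 23. Libraries 20 and 23 were again the highest.

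This density was set beside that of 16 long genes of nerve and muscle, such as Dmd and Magi2, a list added after the data were seen. They summed to at most 15.8 CPM of exon reads in any library. Their median density, in the same unit, was 19.4, 14.3, 62.5, 21.4 and 42.4 in libraries 18, 19, 20, 22 and 23, over 8, 8, 12, 8 and 10 genes whose number of intron reads could be computed, which leaves out genes with no exon read. Slc7a11 lay within the range of these genes in libraries 18, 19, 20 and 22 and slightly above their highest value of 64.1 in library 23. Both Slc7a11 and the median of these genes were highest in libraries 20 and 23. At the density of its own introns, the exons of Slc7a11 would have held 1.91, 0.924, 4.29, 0.990 and 1.25 reads in the same 5 libraries. The 11 exon reads of library 20 (exact Poisson interval 5.49 to 19.7) and the 9 of library 23 (4.12 to 17.1) were above that value. Those of libraries 18, 19 and 22 were not distinguishable from it. These intervals leave out the counting error of the intron density itself. The long nerve and muscle genes with a computed number also had more reads per length on exons than on introns, 1.23-fold in library 20 and 2.58-fold in library 23.

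**Figure D2:**
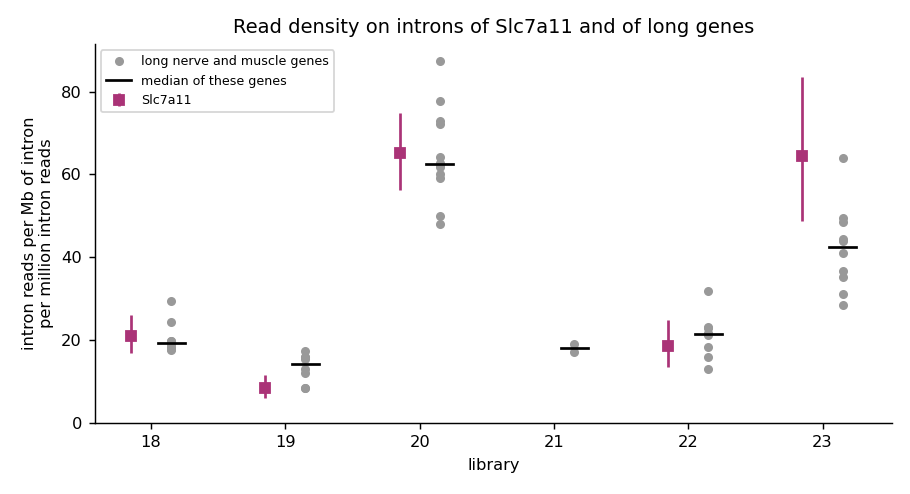
Intron reads per megabase of intron and 1000000 intron reads in each library, for Slc7a11 (squares, exact Poisson 95% intervals) and for the long genes of nerve and muscle whose number could be computed (circles; bar, median). Slc7a11 is highest in libraries 20 and 23, where the medians of the other genes, 62.5 and 42.4, are also highest, and library 21 has no point for it, since its intron share of 100% does not give a number.

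The predicted genes were picked as high in libraries 20 and 23, so that they share these libraries with Slc7a11 follows from the choice. Their sum was 4818 CPM in library 20 and 1997 CPM in library 23. Slc7a11 had 2.0 and 4.74 CPM there, from 11 and 9 exon reads, and the intervals overlapped. Its intron densities in the same libraries were 65.1 and 64.4. The part of these predicted genes in the level of Slc7a11 was not tested. Macrophages can express Slc7a11. Their 6 markers had a sum of 9.09 and 11.1 CPM in libraries 20 and 23, against 5.90 to 10.9 CPM in the other 4, and their part in the level of Slc7a11 was not tested. Vcam1 was highest in library 23 (4.74 CPM), and C1qa had 7 reads in library 20 and 0 in the other 5. Lyz2 was highest in library 18 (3.13 CPM) and Csf1r in library 22 (1.66 CPM). Cd68 was highest in library 21 (3.62 CPM) and next in library 23 (2.64 CPM), and Adgre1, which encodes F4/80, was at 0 in libraries 20 and 23. Of 4 neutrophil markers, 3 had no read in any library. Within the span of Slc7a11 lie 5 other annotated genes, of which 4 had no exon read and the antisense gene Gm37854 had 6. The sources used here do not state whether counting used strand, so reads of opposite strands may be mixed.

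Slc3a2, the heavy chain gene on chromosome 19 (ENSMUSG00000010095, 8706882 to 8723369, minus strand), was read well in every library. It had 115, 92.1, 119, 105, 124 and 117 CPM in libraries 18 to 23. Library 19 lay below the other 5, whose range was narrow, and library 22 was highest, at 1.35 times library 19 (95% interval 1.22 to 1.49, adjusted p = 2.39e-08, chi-square test). Without library 19 the spread did not pass the test (adjusted p = 0.528). Intron reads of Slc3a2 gave the same extremes, with 53.0 intron CPM (intron reads per 1000000 intron reads of the library) in library 19 and 114 in library 22, and differed by more than counting error.

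Slc7a5, whose protein LAT1 imports leucine and other large neutral amino acids, was scarce in these resting cells. It lies on chromosome 8 from 121881150 to 121907694 on the minus strand (ENSMUSG00000040010), inside the span of the predicted gene Gm20388 on the opposite strand, which had 941 exon reads in all. Its exon reads numbered 44, 44, 48, 2, 31 and 13 in libraries 18 to 23, or 5.30, 4.14, 8.73, 2.41, 5.72 and 6.85 CPM. The highest, library 20, was 3.62 times the lowest, library 21, but the interval of 0.948 to 30.7 included a ratio of 1, and without library 21 the highest library was 2.11 times the lowest. With 182 reads in total it was not tested at 200 reads, and at a minimum of 50 reads it differed between libraries (adjusted p = 0.0127). Its intron reads were lowest in library 19, at 10.2 intron CPM, and between 16.3 and 26.9 intron CPM elsewhere.

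Slc7a6, whose protein y+LAT2 exchanges arginine for neutral amino acids, had the highest RPKM of the light chain genes in every library. It lies on chromosome 8 from 106168857 to 106198706 on the plus strand (ENSMUSG00000031904). It had 37.6, 33.2, 38.4, 27.8, 37.5 and 34.3 CPM in libraries 18 to 23. Its intervals overlapped in all 6 libraries, from 17.6 to 41.6 CPM in library 21 to 33.4 to 43.9 CPM in library 20, and of the 6 tested carriers it alone did not pass the chi-square test (adjusted p = 0.363). On introns, library 21 was the highest at 55.0 intron CPM, from 43 reads, and the other 5 lay between 32.0 and 36.8 (adjusted p = 0.0359). Library 21 was thus the lowest by exon reads and the highest by intron reads.

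Per length of transcript, the heavy chain exceeded its light chains in every library. The authors' RPKM (reads per kilobase of exon and 1000000 reads) of Slc3a2 was 15.5, 13.2, 13.9, 13.0, 17.3 and 15.1 in libraries 18 to 23. The RPKM sum of 6 light chain genes that can pair with it, Slc7a5, Slc7a6, Slc7a7, Slc7a8, Slc7a10 and Slc7a11, was 4.79, 4.31, 4.70, 3.25, 5.05 and 4.76. The heavy chain thus exceeded that sum 2.96-fold in library 20 and up to 3.99-fold in library 21. Slc7a6 made up 71.8% of the light chain sum in library 23 and 85.1% in library 19, its lowest and highest shares, and exceeded Slc7a5 by 3.57-fold to 9.33-fold. These are levels of RNA, and protein was not measured.

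**Figure D3:**
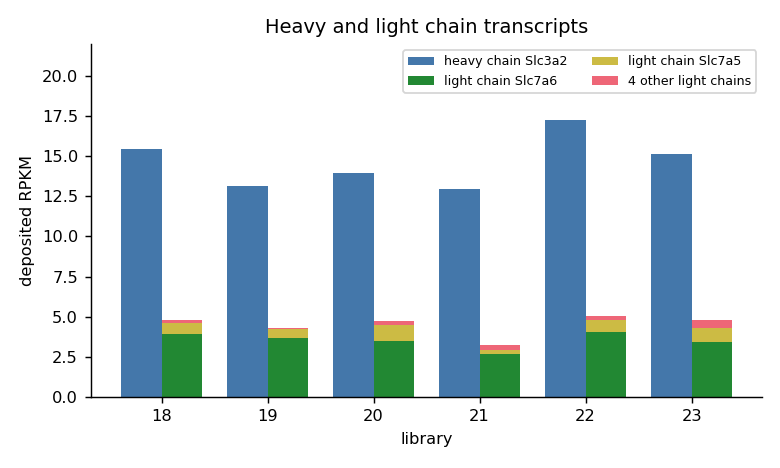
Deposited RPKM of the heavy chain gene Slc3a2 (left bar) and of light chain genes (right, stacked) in each library. The heavy chain reaches 13.0 to 17.3 RPKM and the stacked light chains 3.25 to 5.05 RPKM, most of it Slc7a6.

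Slc38a2 had the highest RPKM of the 8 genes in 5 of 6 libraries and the smallest p for its spread. It encodes SNAT2, a sodium-coupled carrier of glutamine and alanine that cells are known to induce when amino acids are short, and lies on chromosome 15 from 96687394 to 96699698 on the minus strand (ENSMUSG00000022462). It had 222, 271, 374, 287, 337 and 345 CPM in libraries 18 to 23. Libraries 20, 22 and 23 were the 3 highest, and library 18 was the lowest by a margin wider than its interval of 212 to 232 CPM. Library 20 exceeded library 18 by 1.69-fold (95% interval 1.58 to 1.80, adjusted p = 1.06e-69, chi-square test). Intron reads, which are other reads of the same libraries, put the same 3 libraries on top, with 268, 281 and 269 intron CPM in libraries 20, 22 and 23 and 205, 201 and 189 intron CPM in libraries 18, 19 and 21. Atf4, the transcription factor gene that links amino acid shortage to carriers of this kind, was also highest in libraries 20, 22 and 23, at 167, 198 and 206 CPM, and was 123, 114 and 123 CPM in libraries 18, 19 and 21. Pck2, a gene of the amino acid response list picked after its values were seen, was also highest in libraries 20, 22 and 23. It had 8.73 to 15.5 CPM there and 6.03 to 7.72 CPM in libraries 18, 19 and 21. The other genes of that list did not follow this order. Psph, a serine synthesis gene also picked after its values were seen, had 6.91, 6.09 and 4.22 CPM in libraries 20, 22 and 23. In libraries 18, 19 and 21 it had 12.3, 11.4 and 10.9 CPM. Phgdh (35.3 CPM) and Psat1 (18.0 CPM) were lowest in library 20 and highest in library 23 (60.1 and 35.3 CPM). The erythroid and plasma cell sums were both lowest in libraries 18 and 19, with plasma cell sums of 179 and 521 CPM there and 837 to 1245 CPM in the other 4. Their part in these levels was not tested.

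Slc38a1, the gene of the related glutamine carrier SNAT1, is the neighbour of Slc38a2 on chromosome 15, from 96571418 to 96642913 on the same strand (ENSMUSG00000023169). It had 292, 269, 257, 313, 254 and 236 CPM in libraries 18 to 23. Libraries 21 and 18 were the highest, and libraries 22 and 23 the lowest, so that library 18, the lowest for Slc38a2, was second highest for its neighbour. Library 21 exceeded library 23 by 1.33-fold (95% interval 1.13 to 1.55, adjusted p = 2.73e-06). By RPKM, Slc38a2 exceeded Slc38a1 by 1.38-fold in library 18 and by 2.66-fold in library 23. Intron reads of Slc38a1 ordered the libraries otherwise, with library 19 lowest at 431 intron CPM and library 22 highest at 645.

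Slc1a5, whose protein ASCT2 exchanges glutamine and other neutral amino acids, had the smallest ratio of the 5 carriers that passed the test. It lies on chromosome 7 from 16781340 to 16798274 on the plus strand (ENSMUSG00000001918) and had 222, 229, 201, 247, 208 and 225 CPM in libraries 18 to 23. The ratio of library 21 to library 20 was 1.23 (95% interval 1.06 to 1.43, adjusted p = 0.00270), and without library 20 the spread did not pass the test (adjusted p = 0.0697). Its intron reads, 29.8 to 39.6 intron CPM, did not pass the test either (adjusted p = 0.346).

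Slc7a1, the gene of the arginine carrier CAT1 on chromosome 5 (ENSMUSG00000041313, 148327410 to 148399904, minus strand), had 66, 47.1, 49.8, 57.9, 53.5 and 84.9 CPM in libraries 18 to 23. Library 23 was highest, and its interval of 72.3 to 99.1 CPM lay just above that of library 18, the second highest, at 60.6 to 71.8 CPM, but overlapped that of the shallow library 21, at 42.7 to 76.8 CPM. Library 23 exceeded library 19 by 1.80-fold (95% interval 1.5 to 2.16, adjusted p = 2.12e-11, chi-square test). On introns library 19 was also lowest, at 81.4 intron CPM, but library 23 did not stand out, with 155 intron CPM against 157 in libraries 18 and 20.

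**Figure D4:**
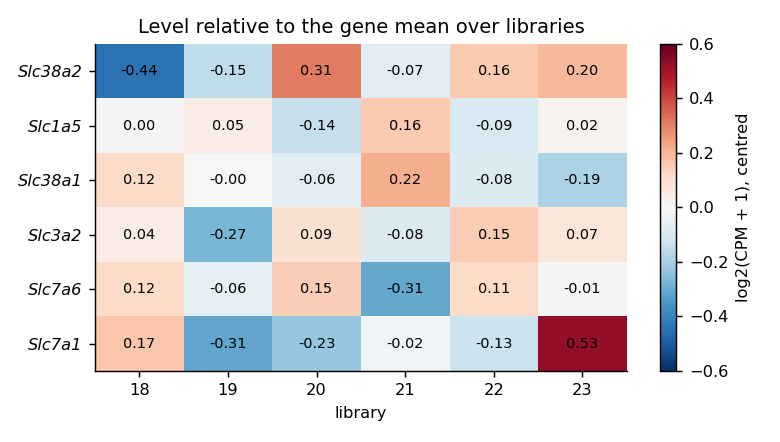
Levels of the 6 tested genes as log2(CPM + 1) minus each gene's mean over the 6 libraries; red is above and blue below that mean. Slc7a1 is highest in library 23 (0.53) and Slc38a2 is lowest in library 18 (-0.44), and no library is high or low for all 6 genes.

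The 6 tested genes did not share a single pattern over the libraries. Likeness was measured as the root mean square difference of centred log2(CPM + 1) over the 6 libraries, where 0 is an identical pattern. Among the 6, Slc1a5 and Slc38a1 were most alike (0.107), followed by Slc3a2 and Slc7a6 (0.137), and Slc38a2 and Slc7a1 were least alike (0.384). The distance from a flat line was 0.0967 for Slc1a5, 0.133 for Slc38a1, 0.141 for Slc3a2, 0.156 for Slc7a6, 0.252 for Slc38a2 and 0.28 for Slc7a1. The 2 closest pairs were thus about as near to a flat line as to each other. Among 6386 other genes with a median of at least 20 CPM, those most like Slc3a2 were Ptpn1 (0.0357), Ube2j1 (0.0436) and Pkp4 (0.0455). Those most like Slc7a6 were Mat2b (0.0312), Dnaja2 (0.0316) and Cers4 (0.0424), those most like Slc1a5 were Mycbp2 (0.0264), Rundc1 (0.0303) and Gm15800 (0.0314), and those most like Slc38a1 were Tmem87a (0.0335), Higd1a (0.0337) and Pik3r1 (0.0349). Those most like Slc38a2 were Pet100 (0.0724), Snx1 (0.0759) and Sytl2 (0.0798), and those most like Slc7a1 were Uqcrq (0.0735), Npm3 (0.0737) and Rpl6 (0.0809). With so many genes and 6 libraries, such nearness is a description of these libraries.

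Ordered by the authors' RPKM, which allows genes to be compared per length, the median levels were 31.5 for Slc38a2, 25 for Slc1a5, 15.5 for Slc38a1, 14.5 for Slc3a2, 3.57 for Slc7a6, 3.43 for Slc7a1, 0.719 for Slc7a5 and 0.0108 for Slc7a11. Some neighbours in this order were separated in every library. Slc1a5 exceeded Slc38a1 by 1.53-fold to 1.92-fold, Slc3a2 exceeded Slc7a6 by 3.59-fold to 4.90-fold, and Slc7a1 exceeded Slc7a5 by 2.81-fold to 11.8-fold, with no overlap of their ranges. Others traded places. Slc38a2 was above Slc1a5 in 5 of 6 libraries, with library 18 the exception, whereas Slc38a1 was above Slc3a2, and Slc7a6 above Slc7a1, in 3 of 6 libraries each. Slc7a11 was lowest in all 6 libraries. CPM per kilobase of exon must give the same order, since both measures divide the same exon reads by the same exon length.

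The share of reads on introns differed widely between the genes and much less between libraries. The median share was 11.4% for Slc1a5, 40.1% for Slc3a2, 40.6% for Slc38a2, 45.8% for Slc7a6, 66% for Slc38a1, 68.1% for Slc7a1 and 74.6% for Slc7a5, beside 38.5% over all tested genes. Genes with long introns collect more intron reads, so the density per kilobase was also compared, summed over libraries. Exon density exceeded intron density by 22.5-fold for Slc1a5, 6.47-fold for Slc7a6, 5.43-fold for Slc3a2, 4.15-fold for Slc38a1, 4.14-fold for Slc7a1, 2.77-fold for Slc7a11, 2.33-fold for Slc38a2 and 2.17-fold for Slc7a5, beside a median of 7.13-fold over 8833 tested genes. Slc1a5 was the only one of the 8 above that median, and Slc38a2 was near the bottom. Reads of Gm20388, on the opposite strand, may be mixed into the value of Slc7a5, since strand use in counting is not stated. At the median density of the long nerve and muscle genes, the introns of the 7 other carriers would have held at most 5.75% of the intron reads found, the highest value being that of Slc7a5 in library 20. Of the 8 genes, 7 differed between libraries by intron reads beyond counting error, beside 85.3% of all genes tested on introns. Library 19 was the lowest for 5 of the 8, among them Slc7a11, which has no value in library 21. How often library 19 was lowest over all genes is not given here.

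**Figure D5:**
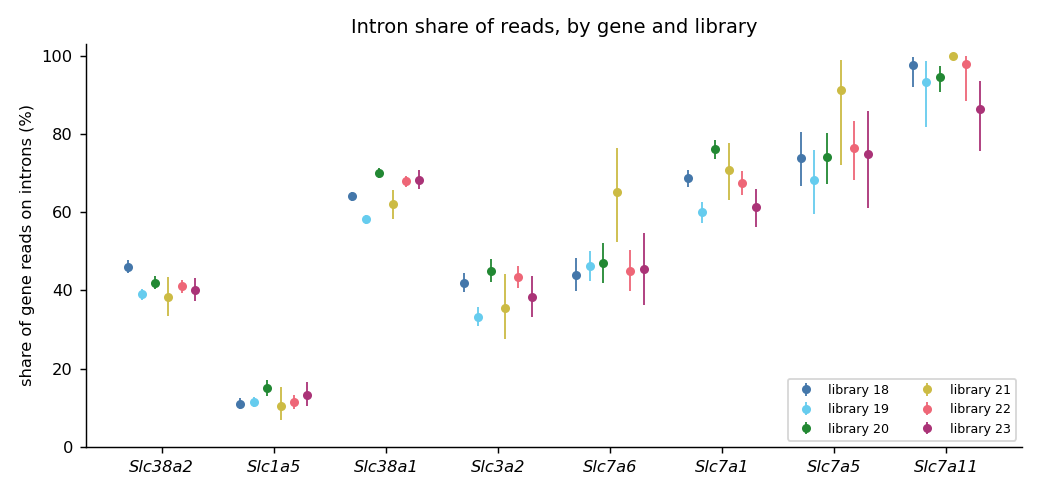
Share of each gene's reads on introns, in percent, by library, with exact binomial 95% intervals (none for library 21 in Slc7a11, where the share of 100% does not give the number of reads). Slc1a5 stays between 10.5% and 15%, and Slc7a11 between 86.4% and 100%.

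The 8 carriers took 71.6% to 75.7% of the summed CPM of all 49 listed amino acid transporter genes. None of 12 further genes of the SLC7 and SLC3 families reached a median of 1 CPM, and 2 of them had no read in any library. Of 29 transporters of other families, 14 reached that level, 11 were tested and 6 differed between libraries beyond counting error, beside 71.6% of all tested genes. Those with the highest median CPM were Slc6a6, the taurine carrier gene, at 67.0 to 83.3 CPM, Slc38a10 at 55.4 to 77.3 CPM, Slc43a2, a large neutral amino acid carrier gene, at 46.4 to 53.8 CPM, and Slc38a9, the gene of the lysosomal arginine sensor, at 26.9 to 34.6 CPM. Slc43a2 (adjusted p = 0.529) and Slc38a9 (adjusted p = 0.223) did not pass the test. Ctns, whose protein exports cystine from lysosomes, was lowest in library 20 (7.82 CPM) and highest in library 21 (21.7 CPM) (adjusted p = 0.0109).

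Of 11 genes of cysteine and glutathione metabolism, 7 had a median of at least 1 CPM, 5 were tested and 4 differed beyond counting error, beside the same 71.6%. Mat2a, which makes S-adenosylmethionine from methionine, ranged from 71.5 to 107 CPM and Gsr, which reduces oxidised glutathione, from 29.8 to 42.5 CPM. Gclc, the catalytic subunit gene of glutathione synthesis, ranged from 24.7 to 41.0 CPM. Gclm, its modifier subunit, was highest in library 23 at 39.5 CPM and 10.9 to 22.7 CPM elsewhere (adjusted p = 1.55e-14). Cth and Cbs, the genes of cysteine synthesis from methionine, had no read in any library, which allows at most 3.62 CPM in library 21 and 0.282 CPM in library 19. The 14 genes of the amino acid response had 10 tested members, of which 6 differed beyond counting error, again beside 71.6% of all tested genes. Atf4 led them at 114 to 206 CPM (adjusted p = 1.47e-55), followed by Phgdh (35.3 to 60.1 CPM) and Shmt2 (29.5 to 43.4 CPM), genes of serine and glycine synthesis, and Mthfd2, of mitochondrial folate metabolism, at 32.7 to 38.6 CPM (adjusted p = 0.912). Asns, a textbook target of ATF4, had 6, 18, 10, 0, 4 and 10 reads in libraries 18 to 23. Corrected for depth these were 0.723, 1.69, 1.82, 0, 0.738 and 5.27 CPM, where the 0 of library 21 allows 3.62 CPM.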

How the data were processed

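RNA came from sorted iNKT cells of spleen. The labels' protocols name the NucleoSpin RNA XS Micro kit for isolation and the QIAseq UPXome kit for the libraries. Per the submitters' processing notes, the builds were GRCm38 and mm10. The sources used here do not give the aligner, the annotation, strand use, molecular identifiers or the handling of reads with several loci. The deposited counts are whole reads on exons per gene, not normalized, per the file headers. The deposited fraction of reads on introns gave the number of intron reads, as the exon count times fraction over 1 minus fraction. These came out within 0.28 of a whole number and cannot be computed where a gene has no exon read. The deposited RPKM values were scaled by the authors to exon length and depth, and exon lengths come from the same table. The 11 further columns of values per library, among them direct counts of intron and of exon-exon reads, were not used.

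Levels are CPM on TMM effective library sizes (edgeR 4.0.16, R 4.3.3, 9510 genes kept by filterByExpr). Poisson and binomial intervals are exact at 95%, and a count of 0 allows 3 reads. Counts were tested against library size by chi-square (5 degrees of freedom) in 9042 genes with at least 200 reads, with a Benjamini-Hochberg threshold of 0.05. The code was tested on simulated data. The planned Gpx4 cKO against WT comparison was not run, since no library name matched a label. The 8 genes and the lists were chosen with earlier results of these data known. Named genes were the 8 carriers, up to 4 genes per list by median CPM, and the 3 genes most like each tested carrier; other named genes were chosen after their values were seen. Some listed genes are not reported here. Alternatives were DESeq2 size factors (DESeq2 1.42.0), unscaled totals, read minimums of 50 and 1, each library left out, and intron reads.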

Additional observations from a re-analysis of the deposited data

How the results depend on the processing

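The number of carriers that differed between libraries beyond counting error was 5 of 6 with DESeq2 size factors (all genes: 6472 of 9042). It was also 5 of 6 with unscaled totals (6646 of 9042) and without libraries 20 and 23 (5247 of 9042). On exon plus intron reads it was 7 of 8 (all genes: 9358 of 10889), as on intron reads alone (7316 of 8577). Lower minimums added carriers to the test, giving 6 of 7 at 50 reads (all genes: 7677 of 11078) and 7 of 8 at 1 read (11904 of 22065). Leaving out each library in turn gave 4 to 5 of 6 carriers and 5407 to 6181 of all genes. The count over all genes was 11904 at a minimum of 1 read, against 6473 at 200 reads, since 22065 genes were then tested. The ratio between the libraries that were highest and lowest by exon reads reversed for Slc7a6 on exon plus intron reads (log2 ratio -0.11). On intron reads alone it reversed for Slc7a5 (-0.11), Slc7a6 (-0.71), Slc1a5 (-0.19) and Slc38a1 (-0.11); the cause was not tested. The alternatives with intron reads alone and without libraries 20 and 23 were chosen after seeing the data. Of the 18 genes named as most like a carrier, 18 were the same with a pseudocount of 0.5 and 16 with a median of at least 10 CPM. No paired analysis was possible because the libraries in the table carry no replicate number or genotype. Depth limits library 21 most, where a count of 0 allows 3.62 CPM.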

Other observations

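Of 12 listed genes that use amino acids inside the cell, 8 were tested and all 8 differed between libraries beyond counting error, beside 71.6% of all tested genes. Glud1, the glutamate dehydrogenase gene, spanned 173 to 218 CPM. Odc1, which makes the polyamine putrescine from ornithine, had 212, 95.1, 210, 222, 245 and 263 CPM in libraries 18 to 23, so that library 19 was 2.77-fold below library 23. Got2, the mitochondrial aspartate aminotransferase gene, ranged from 93.6 to 129 CPM. Arg2 had no read in any library, and Arg1 was at most 6.03 CPM.

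Of 6 genes that regulate carriers or stress responses, 5 were tested and 4 differed beyond counting error, beside the same share of all tested genes. Nfe2l2, the NRF2 gene, ranged from 113 to 137 CPM and Myc, which is known to drive carrier expression in activated T cells, from 41.1 to 60.6 CPM. Bach1, a repressor of NRF2 targets, spanned 35 CPM (library 21) to 70.5 CPM (library 22), and Mlxip stayed between 118 and 128 CPM (adjusted p = 0.867, chi-square test).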
